A study of Mus musculus with 11 samples.

Results

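The imprinted growth genes Plagl1, Mest, Meg3, Cdkn1c, Nnat, H19, Igf2, Dlk1, Peg3 and Grb10 are described here, 10 of the 27998 genes of the 10X Chromium tables. They were chosen by symbol as known imprinted genes, with their levels in these hepatic stellate cell (HSC) libraries already in view, so the levels in the 10X libraries, in injury and in single cells, are a description and carry no test. The list has no numerical threshold. All 10 genes had at least 1 unique molecular identifier (UMI, a counted transcript) in 4 of the 5 10X libraries, and 8 had one in the library of HSCs from uninjured liver, where H19 and Dlk1 were at 0.

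All cells came from adult male mice of the Pdgfrb-BAC-eGFP reporter line (strain background C57BL/6), in which a bacterial artificial chromosome drives GFP from Pdgfrb, and were sorted as GFP+ CD45- CD102- liver cells. Digestion protocol 1 (liver perfused with PBS, then minced and digested ex vivo) gave fibroblasts (FBs) and vascular smooth muscle cells (VSMCs) from uninjured livers and from livers given carbon tetrachloride (CCl4) for 6 weeks. Digestion protocol 2 (enzymes perfused in situ, then a density gradient) gave HSCs from uninjured livers, from livers 72 h after 1 CCl4 dose, and after 6 weeks of CCl4. Each 10X library pooled 3 mice, with 1 library per condition and protocol, so mouse, library and condition cannot be told apart in the 10X data and intervals cover counting error only. A set of 6 Smart-seq2 plates added uninjured mice, mice 14 days after bile duct ligation (BDL) and mice given CCl4 for 6 weeks, with the wells of 1 mouse on 1 plate (a portion) as the smallest unit.

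The 5 libraries held 30999 cells after filtering, with a median of 4300 to 11344 UMIs per cell, and each pair of libraries shared 33 to 74 cell barcodes. Classes were named from marker genes: 6850, 7122 and 5450 HSC-like cells in uninjured, 72 h and 6 week livers, 4046 and 2634 FB-like cells and 1689 and 3011 VSMC-like cells in uninjured and 6 week livers, and 187 FB-like cells in the 72 h library. In the HSC-like class 7 of 7 HSC markers stood at 10 or more CPM (a gene's counts scaled to the total UMIs of the class) in each library, with a summed level of 27246 CPM in uninjured liver, 5947.2 at 72 h and 14880 at 6 weeks. The 6 FB markers summed to 30.5, 248 and 538 CPM in the same cells, against 8727 in uninjured FB-like cells, and the 6 VSMC markers to 594, 1881 and 990 CPM. Mesothelial markers were at 0 CPM in HSC-like cells of the uninjured and 72 h libraries.

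Imprinted genes are transcribed mainly from the copy inherited from a given parent, the choice being written into DNA methylation in the germ line, and they sit in clusters under shared control regions. Many are highly expressed in the fetus and the placenta, where they set the rate of growth, and decline after birth. Plagl1 encodes a zinc finger transcription factor that has been placed at the centre of a network of co-expressed imprinted genes. Activated HSCs are the main source of scar collagen in the injured liver. The deposited counts do not separate the parental alleles, so nothing below bears on whether imprinting was kept.

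Promoter windows of 300 bases around the annotated start, from RefSeq on GRCm38.p6, were found for 8 of the 10 genes, in 15 windows in all. They are shown for Plagl1, Meg3 and Nnat, the genes with a window among those at 10 CPM or more and at least 2-fold higher at 72 h, for Mest, whose level among cells ran against theirs, and for Peg3, the gene whose window held the motif searched. The motif was GGGGCCCC, a sequence bound by PLAGL1 that reads the same on both strands, and capitals mark it. It was present in 354 of 32851 windows of the whole annotation (1.08%) and in 1 of the 15 windows, that of Peg3, 201 bases before the start. A match is a description of letters, and its absence says only that these letters are not in the window.

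Plagl1, plus strand, chr10:13090582-13090881, with 26 CpG dinucleotides, more than 83.13% of all windows.
Plagl1: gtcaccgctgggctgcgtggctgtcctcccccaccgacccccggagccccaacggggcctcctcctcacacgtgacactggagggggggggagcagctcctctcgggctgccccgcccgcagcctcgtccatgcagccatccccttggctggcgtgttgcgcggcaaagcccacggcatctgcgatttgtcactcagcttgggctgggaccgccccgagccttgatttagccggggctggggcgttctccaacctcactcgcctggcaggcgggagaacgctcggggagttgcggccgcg

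Meg3, plus strand, chr12:109540746-109541045, with 13 CpG dinucleotides.
Meg3: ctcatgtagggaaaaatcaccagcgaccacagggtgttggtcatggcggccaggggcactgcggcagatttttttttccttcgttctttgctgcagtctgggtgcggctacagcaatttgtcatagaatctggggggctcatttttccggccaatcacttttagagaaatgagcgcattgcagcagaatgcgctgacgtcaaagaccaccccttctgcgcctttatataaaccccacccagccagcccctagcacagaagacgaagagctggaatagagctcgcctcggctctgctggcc

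Nnat, plus strand, chr2:157559828-157560127, with 17 CpG dinucleotides.
Nnat: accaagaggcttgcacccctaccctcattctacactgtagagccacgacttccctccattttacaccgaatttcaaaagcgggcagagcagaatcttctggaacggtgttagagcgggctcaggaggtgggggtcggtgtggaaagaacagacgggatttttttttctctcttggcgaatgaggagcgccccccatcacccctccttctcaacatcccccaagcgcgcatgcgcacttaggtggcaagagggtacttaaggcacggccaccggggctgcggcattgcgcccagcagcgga

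Mest, first of its 3 windows, plus strand, chr6:30733256-30733555, with 8 CpG dinucleotides.
Mest: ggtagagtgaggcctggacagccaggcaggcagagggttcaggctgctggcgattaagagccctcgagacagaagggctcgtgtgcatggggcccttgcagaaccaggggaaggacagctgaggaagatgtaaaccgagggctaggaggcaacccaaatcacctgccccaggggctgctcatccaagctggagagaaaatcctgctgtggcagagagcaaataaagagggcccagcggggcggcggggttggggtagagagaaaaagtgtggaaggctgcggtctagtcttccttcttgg

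Peg3, minus strand, chr7:6730370-6730669, with 13 CpG dinucleotides.
Peg3: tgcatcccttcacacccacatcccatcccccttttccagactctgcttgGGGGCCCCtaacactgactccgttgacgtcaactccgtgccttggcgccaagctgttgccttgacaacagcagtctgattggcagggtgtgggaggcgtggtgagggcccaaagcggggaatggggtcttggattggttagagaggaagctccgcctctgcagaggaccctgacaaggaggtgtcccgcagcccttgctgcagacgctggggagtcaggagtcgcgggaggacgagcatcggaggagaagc

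These 5 genes lie on chromosomes 10, 12, 2, 6 and 7. Meg3 and Dlk1 share a cluster on chromosome 12. H19, Igf2 and Cdkn1c lie on chromosome 7, with Peg3 far from them on the same chromosome. Any part of shared control within a cluster in the levels below was not tested.

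The transcription factor of the group came first. Plagl1 stood at 16.7 CPM in uninjured HSC-like cells, 212 CPM at 72 h and 52.9 CPM at 6 weeks. That was 12.7-fold higher at 72 h (95% interval 11.8 to 13.7) and 3.16-fold higher at 6 weeks (2.92 to 3.43). The gain was spread over the population: 10.3% of uninjured HSC-like cells held a Plagl1 UMI, 64.7% at 72 h and 32.1% at 6 weeks, and after thinning each cell to 2000 UMIs the shares were 3.90%, 28.9% and 9.95%. No mesenchymal class is known to lack Plagl1, so no background share from free RNA can be given. For comparison, over the same cells Col1a1, the main fibrillar collagen, was 9.98-fold and Acta2, the smooth muscle actin of myofibroblasts, 30.3-fold higher at 72 h. Peg3, a second zinc finger protein, moved little, from 16.02 to 24.5 CPM at 72 h (1.53-fold, 1.41 to 1.67) and 12.3 CPM at 6 weeks (0.767-fold, 0.689 to 0.854).

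The long noncoding RNAs gave the widest contrast between time points. Meg3, transcribed from the maternal copy, stood at 63.7 CPM in uninjured HSC-like cells, 305 CPM at 72 h and 44.5 CPM at 6 weeks, which is 4.79-fold higher (4.61 to 4.98) and then 0.699-fold (0.661 to 0.738). H19, also maternal and abundant in fetal liver, had 0 UMIs in 6850 uninjured HSC-like cells, 1616 UMIs at 72 h (19.3 CPM) and 22 UMIs at 6 weeks (0.422 CPM). Against a limit of 3 UMIs for the class, H19 was at least 298-fold higher at 72 h and at least 6.52-fold higher at 6 weeks, the latter on 22 UMIs and 3.54-fold as a mean of shares over cells. The exact 95% intervals, which also take in the counting error of the 0 and of the injured UMIs, begin at 242 and 4.87. Its 72 h UMIs sat in few cells. Of 7122 HSC-like cells 286 held any, up to 61 in a cell, and the 71 cells with most (1% of the class) held 78.0% of them. Meg3 was broader, with a UMI in 3094 cells and a mean of 8.27 UMIs in those.

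Nnat, a small membrane protein of the endoplasmic reticulum known from the developing brain and from adipocytes, had the largest fold of the genes that were above 0 UMIs in uninjured HSC-like cells. Its level was 1.27 CPM there, 54.8 CPM at 72 h and 12.3 CPM at 6 weeks, which is 43.1-fold (33.3 to 56.7) and 9.69-fold (7.41 to 12.9) higher. The 59 uninjured UMIs set the width of these intervals. At 72 h Nnat was found in 24.98% of HSC-like cells, but at 6 weeks in 4.68%, where the 1% of cells with most held 64.1% of its UMIs.

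Among the growth restrainers, Cdkn1c, a cyclin-dependent kinase inhibitor, stood at 22.8, 42.2 and 34.4 CPM in uninjured, 72 h and 6 week HSC-like cells, 1.85-fold (1.73 to 1.98) and 1.51-fold (1.40 to 1.63) higher. Grb10, an adaptor that dampens insulin and IGF receptor signalling, stood at 61.5, 90.9 and 56.2 CPM, 1.477-fold higher at 72 h (1.41 to 1.54). Its 6 week value, 0.913-fold, turned to 1.03-fold when scaled by median-of-ratios size factors, so no direction is given. Apart from these restrainers, Mest, a hydrolase-like protein expressed from the paternal copy, stood at 83.6, 113 and 143 CPM. That was 1.35-fold (1.30 to 1.40) and 1.71-fold (1.65 to 1.78) higher. Mest was the 1 gene of those above 10 CPM in HSC-like cells to stand higher at 6 weeks than at 72 h.

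The ligands were low in HSC-like cells. Igf2, the fetal growth factor whose gene neighbours H19, had 50, 104 and 39 UMIs in uninjured, 72 h and 6 week HSC-like cells, or 1.08, 1.24 and 0.747 CPM, and both fold intervals include no change (0.814 to 1.65 at 72 h and 0.444 to 1.08 at 6 weeks). Dlk1, a transmembrane ligand of fetal hepatoblasts and preadipocytes, had 0, 170 and 38 UMIs, at least 31.4-fold higher at 72 h and at least 11.3-fold higher at 6 weeks by the limit of 3 UMIs (exact intervals from 25.2 and 8.72), yet its 72 h level was 2.03 CPM with a UMI in 117 of 7122 cells. H19 and Igf2 share an enhancer in other tissues, and in these cells the level of H19 was above that of Igf2 at 72 h and below it at 6 weeks.

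At 72 h, 8 of the 10 genes reached 10 CPM in HSC-like cells of either group, and 4 of them, Plagl1, Meg3, Nnat and H19, were at least 2-fold higher, while 0 were at least 2-fold lower. The same sizes were reached by 6.87% and 9.42% of the 8375 genes at that level. At 6 weeks 7 genes reached it, with 2 (Plagl1 and Nnat) at least 2-fold higher and 0 lower, against 2.95% and 1.62% of all genes. Because the genes were selected on these contrasts, nothing is read from the difference. The median fold of all genes in HSC-like cells was 0.861 at 72 h and 0.858 at 6 weeks, a log2 shift of -0.22 at both, and that of the genes described was 3.32 and 1.51. The plot of levels by class shows each value.

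**Figure D1:**
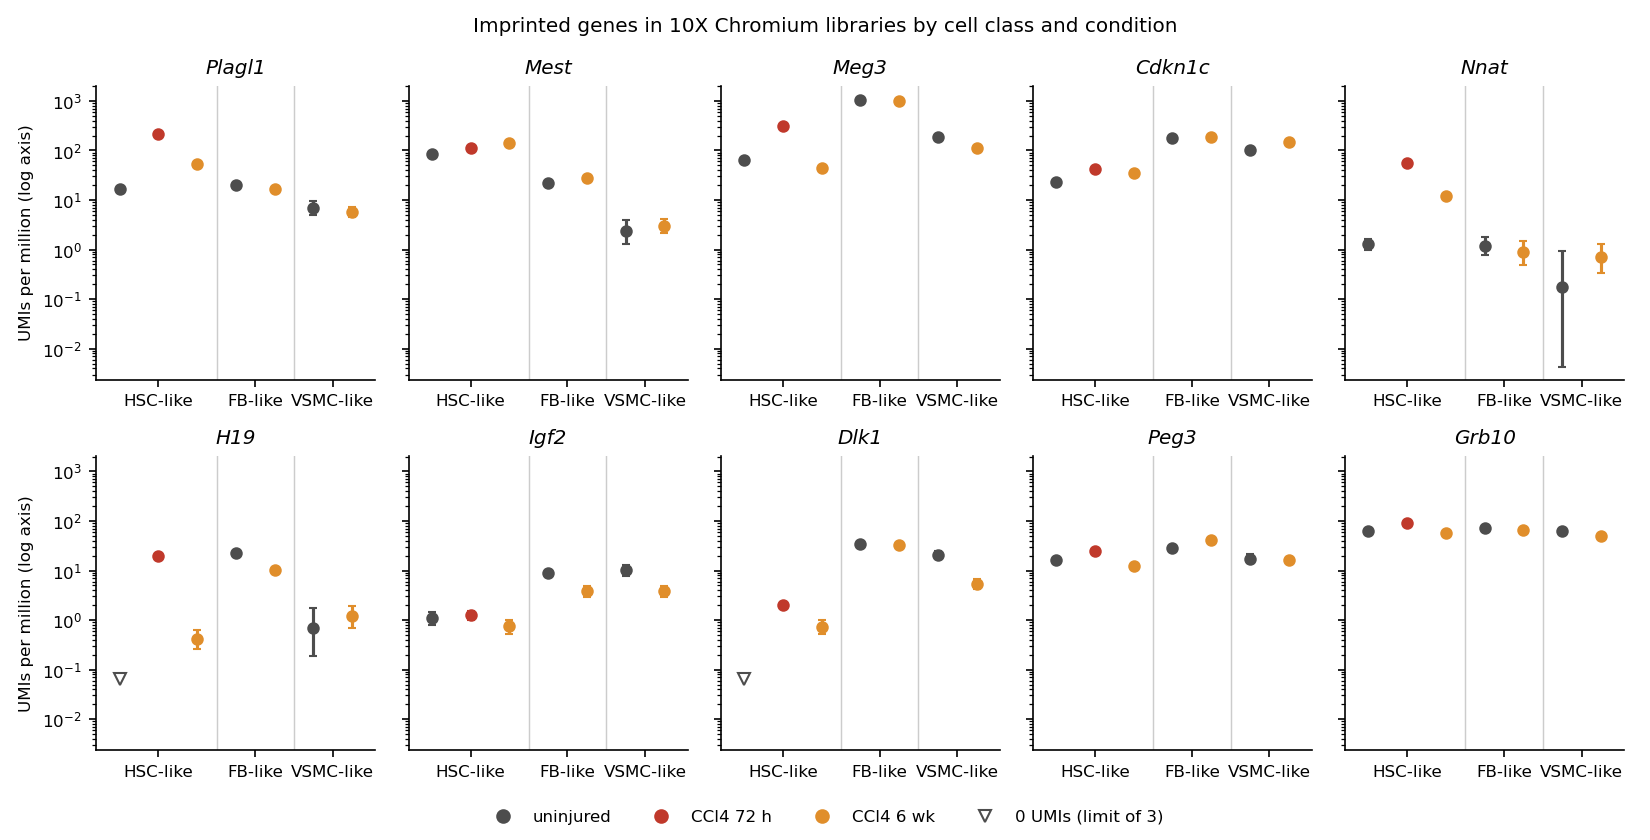
Level of each imprinted gene (CPM, log axis) in HSC-like, FB-like and VSMC-like cells of the uninjured, 72 h and 6 week libraries, 1 point per library and class with 95% Poisson intervals. Triangles give the limit for 0 UMIs. The 72 h point is the highest of the HSC-like points for each gene but Mest, which is highest at 6 weeks, though the intervals of Igf2 overlap. Meg3, Cdkn1c, Igf2, Dlk1 and Peg3 stand higher in both FB-like points than in any HSC-like point.

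Fibroblasts carried many of these genes without injury. In FB-like cells of protocol 1, Meg3 stood at 1062 CPM in uninjured and 998 CPM in 6 week livers, and Cdkn1c at 178 and 184 CPM. Peg3 stood at 28.4 and 40.5 CPM and Igf2 at 8.79 and 3.78 CPM. Dlk1 stood at 34.9 and 33.3 CPM and H19 at 22.9 and 10.0 CPM, so the level that 72 h HSC-like cells reached for H19 (19.3 CPM) lay between the FB-like values. Both were confined to few fibroblasts, as H19 was found in 114 and Dlk1 in 144 of 4046 uninjured FB-like cells. HSC-like cells stood above FB-like cells for Mest (83.6 against 22.5 CPM in uninjured liver), and at 72 h for Plagl1 (212 against 92.5 CPM in the 187 FB-like cells of that library). Nnat was low in FB-like cells of protocol 1 (1.19 and 0.885 CPM) and 51.8 CPM in the 187 FB-like cells of the 72 h library, against 54.8 CPM in the HSC-like cells there. Those 187 cells were mixed by their markers, with FB markers summing to 1665.5 CPM, VSMC markers to 5179, HSC markers to 1625 and hepatocyte markers to 574 CPM. The part of these other cells' transcripts in the Nnat and Plagl1 values was not tested.

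In VSMC-like cells the uninjured and 6 week levels were 183 and 112 CPM for Meg3, 103 and 151 for Cdkn1c, 63.9 and 49.7 for Grb10, 20.8 and 5.30 for Dlk1, and 10.1 and 3.82 for Igf2. Mest and Nnat were lowest in this class, at 2.40 and 0.172 CPM in uninjured liver. After 6 weeks of CCl4, 0 of 8 genes were at least 2-fold higher in FB-like cells and 1 was lower, H19 at 0.438-fold (0.365 to 0.523), against 1.51% and 0.475% of all genes. In VSMC-like cells 0 of 6 were higher and 2 were lower, Igf2 at 0.377-fold (0.256 to 0.555) and Dlk1 at 0.255-fold (0.189 to 0.343), against 2.37% and 0.547%. All 121 uninjured Dlk1 UMIs of VSMC-like cells sat in 17 of 1689 cells (1.01%). At 6 weeks its 75 UMIs sat in 32 of 3011 cells (1.06%), with 41 of them in 1 cell. These shares of cells with Dlk1 were not matched for depth. With cells thinned to equal depth the share was 0.783% in uninjured liver (0.405 to 1.36) and 0.514% at 6 weeks (0.281 to 0.860). The intervals overlap, so no direction is given for the share. The 6 week fold of Dlk1 was 0.131 with called doublets left out. Depth, mouse and protocol differ between the HSC-like and the other classes, and their part in the differences between classes was not tested.

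The FB markers in HSC-like cells were higher together with Meg3 and H19 at 72 h, 248 against 30.5 CPM in sum. At 6 weeks the sum was higher still, 538 CPM, while Meg3 stood at 44.5 CPM, under its uninjured level, and H19 at 0.422 CPM. At 72 h 4 of the 6 FB markers stood at 10 CPM or more, from 0.370 for the lowest to 163 CPM for the highest, and none was at 0. Their part in the Meg3 and H19 levels was not tested. When the 72 h library was clustered alone, without the 10 genes, Clec3b, 1 of the 6 FB markers, stood at 117 CPM in the FB cluster, in 8.65% of its 208 cells, and between 0.0 and 1.5 CPM in the other 10 clusters. Lrat, the retinol esterifying enzyme of HSCs, was found in 81.7% of the cells of the FB cluster. Meg3 stood at 827 CPM in the FB cluster. It reached 599 CPM in the largest HSC cluster (1699 cells, led by Cthrc1 and Wt1), where Clec3b was 0.2 CPM and Lrat 1034 CPM. Clec3b was the only FB marker read by cluster, so its values do not show that these clusters lacked FB markers. H19 was highest by CPM in the second cluster (1098 cells, led by Abhd2 and Slc39a1), at 54.5 CPM. It was found in 5.46% of those cells, against 6.36% of the Cthrc1 cluster and 8.29% of the cluster led by Hist1h2ap and Top2a. These shares were not matched for depth, at medians of 5934, 13606 and 19240.5 UMIs per cell. H19 stood at 9.4 CPM in the FB cluster.

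In some of these clusters, not all, Mest ran opposite to Meg3 and Plagl1. Mest was highest in the cluster led by Clec4g and C6 (1066 cells), at 318 CPM, where Meg3 was 45.6 CPM and Plagl1 31.4 CPM. In the Cthrc1 cluster the order was turned round, with Mest at 56.7 CPM, Plagl1 at 338 CPM, Nnat at 81.5 CPM and Cdkn1c at 70.2 CPM. A small cluster led by Cdc20 and Tubb4b (214 cells), cells in mitosis by those genes, followed the first pattern, with 288 CPM for Mest and 40.4 CPM for Meg3. Other dividing clusters did not follow it. The cluster led by Ccnb1 and Cenpf (271 cells) held 42.6 CPM of Mest, 193 of Plagl1 and 164 of Meg3. The cluster led by Hist1h2ap and Top2a (362 cells) held 77.2, 189 and 237 CPM of the same genes. Clusters 4 and 6 of that library, led by Ccl2 and by Apoa1, took no class name, and cluster 6 held the highest Nnat, 96.6 CPM. H19 ran from 0.8 to 54.5 CPM over the 11 clusters.

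**Figure D2:**
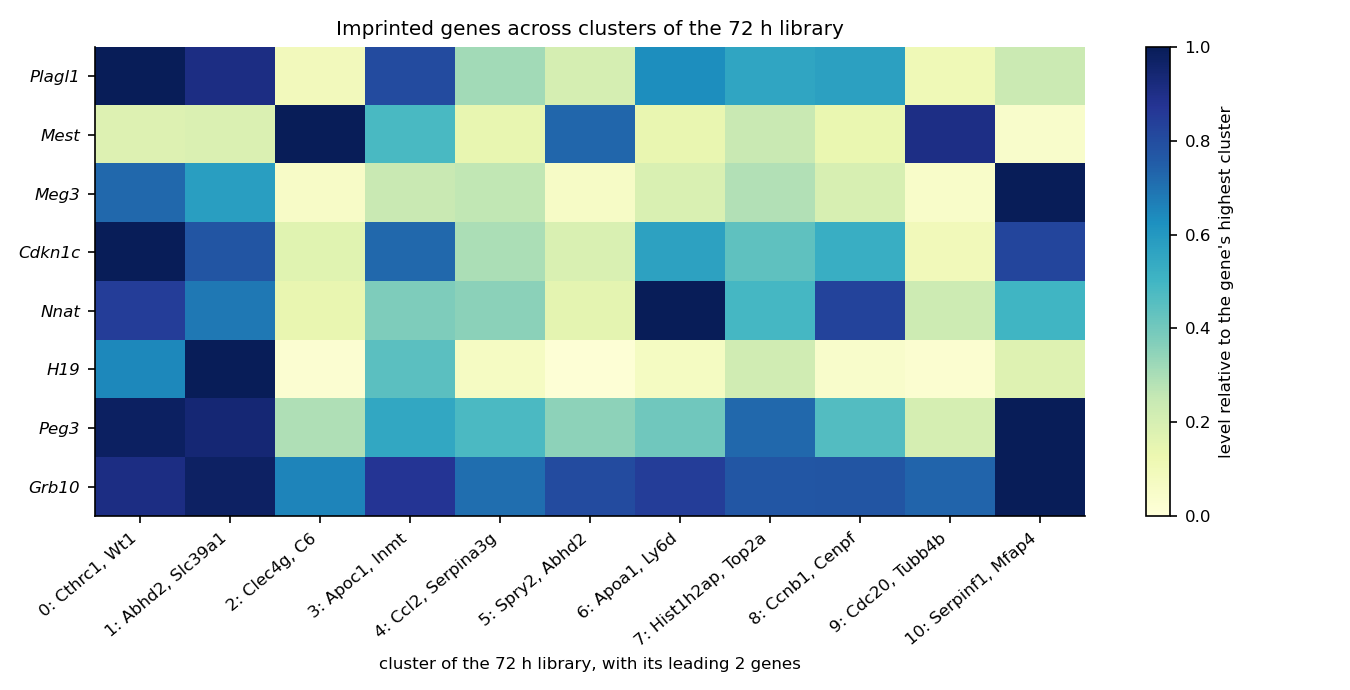
Level of 8 imprinted genes in the 11 clusters of the 72 h library, each as a share of that gene's highest cluster (colour, 0 to 1). Mest is darkest in clusters 2, 5 and 9, where Plagl1, Meg3, Cdkn1c, H19 and Nnat are pale, and Grb10 varies least.

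Collagen level within the 72 h library also set Mest against Meg3 and Plagl1. HSC-like cells were divided at 1 point on the mean of Col1a1, Col1a2 and Col3a1, set over the 3 libraries together, into collagen-high and other cells: 379 of 6850 were collagen-high in uninjured liver, 4963 of 7122 at 72 h and 1483 of 5450 at 6 weeks, with 266, 455 and 484 cells close to the cut. At 72 h Meg3 stood at 389 CPM in collagen-high and 65.9 CPM in other cells (5.90-fold), Plagl1 at 259 and 80.1 CPM (3.23-fold), and Nnat at 65.5 and 24.1 CPM (2.72-fold). Cdkn1c (2.44-fold), Peg3 (2.40-fold) and Grb10 (1.32-fold) leaned the same way. With the division set on values that were not logged, which left 2529 cells as collagen-high, the folds were smaller, 2.49 for Meg3, 1.60 for Plagl1, 1.47 for Nnat and 1.36 for Cdkn1c. Mest leaned the other way, 63.5 against 255 CPM (0.249-fold, 0.239 to 0.259), and was 0.277-fold with that other division.

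The split in Mest was present in each library. The Mest CPM of collagen-high cells was 0.520-fold that of the other cells in uninjured liver (0.425 to 0.629) and 0.257-fold at 6 weeks (0.238 to 0.279). Plagl1 differed little between the states in uninjured liver (1.08-fold, 0.778 to 1.46) and was 1.72-fold higher in collagen-high cells at 6 weeks. Nnat was 4.26-fold higher in collagen-high cells at 6 weeks, 27.3 against 6.41 CPM. H19 was 25.1 against 2.76 CPM at 72 h (9.07-fold), but with the division on values that were not logged the fold was 0.928, and set within the 72 h library alone it was 2.29.

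Ranked by collagen, H19 was highest by CPM in the middle of the 72 h cells. Its bin levels rest on few cells, since 71 cells held 78.0% of its UMIs. Over 5 equal bins of the 72 h HSC-like cells, from the lowest to the highest collagen level, H19 stood at 1.44, 11.6, 34.7, 31.2 and 12.7 CPM. Meg3 climbed through all of them, 48.4, 135, 307, 410 and 536 CPM. Plagl1 climbed to the fourth bin, 55.0, 159, 246, 294 and 262 CPM, as did Nnat, 20.6, 38.2, 64.0, 81.9 and 58.6 CPM. Mest went down throughout, 299, 144, 79.0, 57.4 and 34.8 CPM at 72 h and 286, 202, 131, 78.0 and 40.7 CPM at 6 weeks. In uninjured liver Cdkn1c stayed between 21.1 and 24.1 CPM and Plagl1 between 14.1 and 19.2 CPM over the bins.

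**Figure D3:**
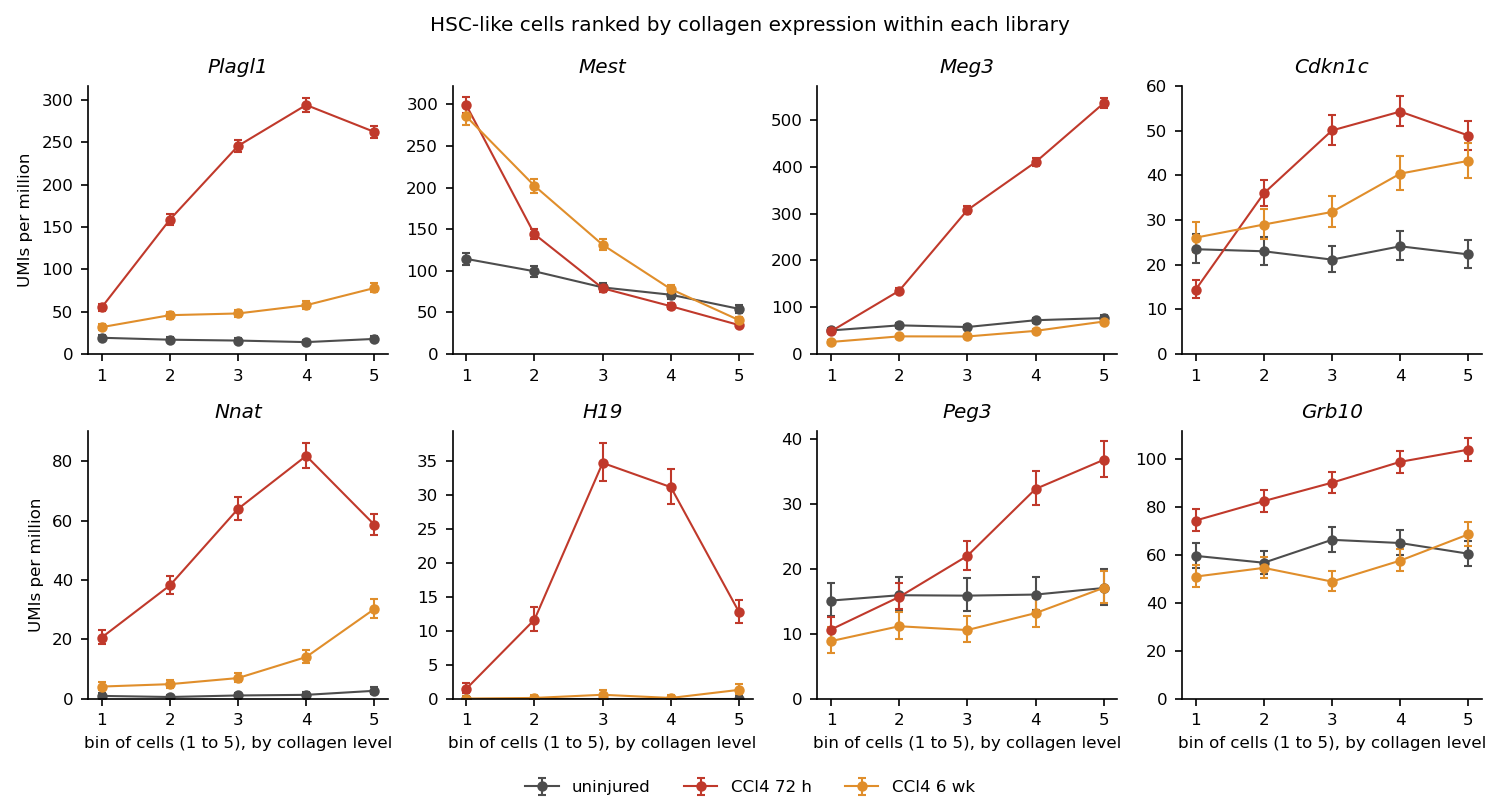
Level of 8 imprinted genes (CPM) in 5 equal bins of the HSC-like cells of each protocol 2 library, ordered by collagen level within the library, with 95% Poisson intervals. At 72 h Meg3 reaches 536 CPM in the highest bin, H19 peaks in the middle bin at 34.7 CPM and Mest falls to 34.8 CPM. The H19 levels rest on few cells, which the intervals do not cover.

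Zonation of HSCs, from cells around the portal vein (portal vein-associated, PaHSC-like) to cells around the central vein (central vein-associated, CaHSC-like), was scored from 52 portal and 29 central genes of the study, each imprinted gene being left out of the score it was read against. The study chose these genes on HSCs of these data, so they are not independent of the cells scored. Mest stood higher in PaHSC-like cells in each library, 134 against 36.2 CPM in uninjured liver (3.70-fold), 194 against 69.2 at 72 h (2.80-fold) and 274 against 52.8 at 6 weeks (5.19-fold). Plagl1 stood lower in PaHSC-like cells, 0.671-fold in uninjured liver, 0.281-fold at 72 h and 0.298-fold at 6 weeks. Meg3 (0.574, 0.334 and 0.388-fold) and Cdkn1c (0.625, 0.327 and 0.491-fold) were lower as well. The zone and collagen splits overlap, since Col1a1 itself was 0.555-fold in PaHSC-like cells at 72 h, and their parts were not separated. The score was not checked against position in the tissue at 72 h or 6 weeks.

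Proliferating cells at 72 h were 859 of 7122, by Mki67, Cdca8, Cdc20, Ccna2 and Ccnb1. Their H19 level in CPM was 0.1801-fold that of the other HSC-like cells (0.136 to 0.235). On the same scale Meg3 was 0.415-fold (0.396 to 0.434) and Cdkn1c 0.612-fold (0.550 to 0.680). Plagl1 was 0.742-fold, Mest 0.764-fold and Grb10 0.904-fold. Nnat was 1.12-fold (1.04 to 1.21), the 1 gene of the 10 that stood higher in proliferating cells. Col1a1 was 0.940-fold, so the proliferation and collagen states were different divisions of the cells. The H19 fold rests on few cells, since the 71 cells with most held 78.0% of its UMIs, and its interval covers counting error only. In clusters 6, 7, 8 and 9 of the 72 h library, those with most Mki67, H19 was found in 3.20%, 8.29%, 4.06% and 1.40% of cells. Over all HSC-like cells at 72 h the share was 4.02%. These shares were not matched for depth, the medians of the clusters being 12598, 19240.5, 15386 and 10898 UMIs per cell in the same order. Whether the share of cells with H19 differs at equal depth was not tested.

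Co-occurrence was read in 6446 HSC-like cells of the 72 h library thinned to 5000 UMIs each, with 676 shallower cells left out. At that depth Plagl1 was found in 49.3% of cells, Meg3 in 36.2%, Grb10 in 35.7%, Mest in 30.9%, Cdkn1c in 16.8%, Nnat in 15.9%, Peg3 in 10.5% and H19 in 2.79%. Igf2 (0.605%) and Dlk1 (0.900%) were too rare for pairs. Meg3 was found in 46.0% of cells with Plagl1 and 26.6% of cells without it, and H19 in 4.62% and 1.01%. Of the 180 cells with H19, 81.7% also held Plagl1, 71.1% Meg3 and 45.6% Cdkn1c, against 48.4%, 35.2% and 16.01% of cells without H19. Mest was also found more often in cells with H19, in 45.6% against 30.5%, and in 24.6% against 17.1% at 2000 UMIs, unlike its pairs with Plagl1 and Meg3.

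Of 28 pairs, 9 had a Pearson r of at least 0.1 over cells, all of them from 1 library and so sharing its depth and its collagen gradient. They were led by Plagl1 with Meg3 (0.297), Plagl1 with Cdkn1c (0.226), Meg3 with H19 (0.218) and Meg3 with Cdkn1c (0.211). Nnat went with Plagl1 (0.144) and Meg3 (0.118), and Peg3 with Meg3 (0.111). Mest had r of -0.105 with Meg3 and -0.085 with Plagl1. These are weak values in sparse counts and are given as a description. The share of all pairs of genes that reach an r of 0.1 in these cells was not counted, so nothing is read from the number of pairs.

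**Figure D4:**
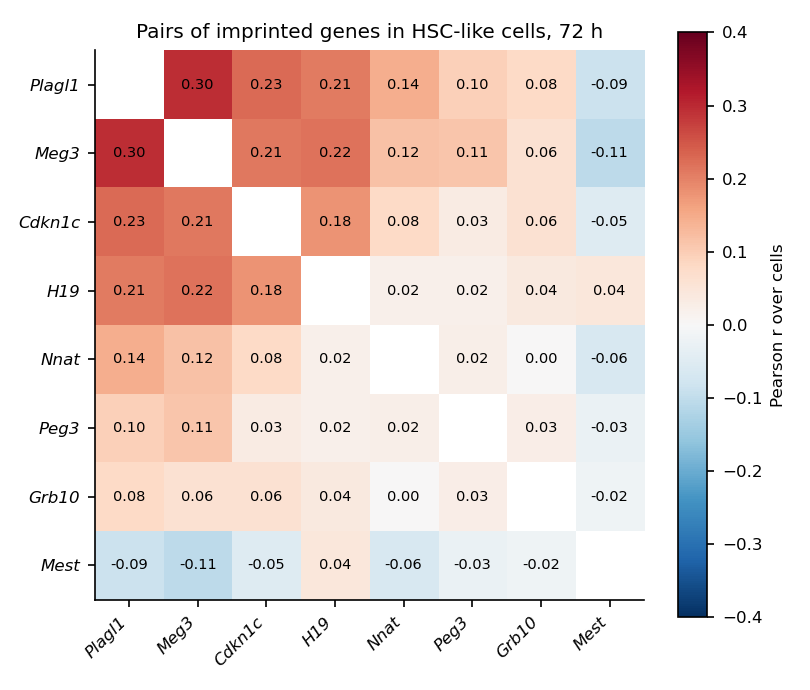
Pearson r over 6446 HSC-like cells of the 72 h library, of log values at 5000 UMIs per cell, for each pair of 8 imprinted genes (red positive, blue negative). Plagl1, Meg3, Cdkn1c and H19 form the red corner, from 0.179 for H19 with Cdkn1c to 0.297, and Mest is blue with Meg3 and Plagl1.

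Among 7449 genes found in at least 5% of those cells, the gene whose levels ran most like Plagl1 was Meg3 (0.297). Rpl41 (0.290) and Col1a2 (0.289) were close behind. Plagl1 was in turn the leading partner of Cdkn1c (0.226, with Meg3 next at 0.211) and of Nnat (0.144, with Rplp0 and Rpl41 next at 0.134). Meg3 ran with the collagens, Col1a1 (0.328), Col1a2 and Col3a1, which also led for Grb10, with a highest r of 0.094. The leading partners of Peg3 were Col1a1 (0.116), Meg3 (0.111) and Col3a1 (0.111). Mest ran with Sod3 (0.385), Colec11 and Clec4g, and its lowest values were with Col3a1 (-0.362), Col1a1 and Col1a2. Of these partners Sod3 and Clec4g were leading genes of the Mest-high cluster, and Colec11 was an HSC marker found in 98.6% of the cells. Ribosomal protein genes among the partners of Plagl1 and Nnat are genes found in all cells.

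Other genes listed as imprinted and genes of the IGF axis were read in the same cells. Of 39 such imprinted genes with a row, 17 reached 10 CPM in HSC-like cells at 72 h. Of these 0 were at least 2-fold higher and 2 lower, with a median fold of 0.713. Whether a listed gene is imprinted in these cells cannot be read from counts that do not separate the alleles. Dcn, a collagen-binding proteoglycan, went from 27498 to 11596 CPM (0.422-fold), Cd81 was 0.552-fold and Osbpl5 0.570-fold. At the other end Gnas, the stimulatory G protein subunit, was 1.74-fold, Mcts2 1.18-fold and Ndn 0.976-fold. Mirg, a noncoding RNA of the Meg3 cluster named after its value was seen, was 9.43-fold higher at 5.90 CPM. Of 11 genes of the IGF axis 8 reached 10 CPM at 72 h, with 1 higher and 1 lower: Igf1, the postnatal growth factor, went from 5.43 to 45.5 CPM (8.38-fold, 36.2 CPM at 6 weeks), and its binding protein Igfbp3 from 873 to 250 CPM (0.286-fold). The receptor gene Igf1r was 0.819-fold. In the same cells Igf2 was 1.24 CPM, so Igf1 was the more abundant of the ligand transcripts at 72 h, on a scale that counts molecules at the 3' end and does not grow with gene length.

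The Smart-seq2 plates gave values by mouse and plate. In the 2 uninjured portions with HSC-like wells (150 and 156 wells), Mest stood at 304 and 247 RPM (a gene's reads scaled to the total reads of the class in that portion), Grb10 at 94.3 and 95.2, Plagl1 at 39.3 and 90.3, Peg3 at 41.7 and 29.996, Cdkn1c at 13.3 and 10.6, and Meg3 at 14.2 and 7.84 RPM. H19 had 0 reads in both, and Dlk1 0 and 0.110 RPM. Nnat stood at 0.135 and 1.66 RPM. As in the 10X library, H19 and Dlk1 were at or near 0 in HSCs of uninjured liver. Reads from full-length transcripts are counted here without molecular identifiers, so levels are not comparable between genes or with CPM. No well of an injured mouse was HSC-like and no plate held 72 h mice, so the 72 h and 6 week folds have no replicate check.

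In FB-like wells Grb10 was higher after BDL. It stood at 88.6 to 148 RPM in 6 uninjured portions (117 ± 19.4, SD) and at 165, 176, 251, 262 and 283 RPM in 5 BDL portions (227 ± 53.2). How many of all genes separate the portions in this way was not counted. The log2 fold change was 0.96 (SE 0.20, adjusted p = 0.0466, edgeR quasi-likelihood test with Benjamini-Hochberg adjustment over 13382 genes), and 1 of the 10 genes passed, against 0.276% of all genes higher and 0.127% lower. The Smart-seq2 levels were in view when the genes were listed, so this p-value is not independent support. The call was lost with any portion left out (adjusted p 0.0525 to 0.122) and with plate in the fit (log2 0.84, adjusted p 0.555). Each BDL portion stood above the uninjured portion of its own plate, at 283 and 251 against 113 RPM on plate 1, 165 and 262 against 148 RPM on plate 2, and 176 against 113 RPM on plate 4. In the 4 CCl4 portions Grb10 stood at 107 to 154 RPM (132 ± 19.6), with 128 and 107 against 88.6 RPM on plate 3 and 154 and 138 against 124 RPM on plate 5.

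Other FB-like values after BDL varied more than the difference between groups. Plagl1 stood at 7.99 to 58.8 RPM in uninjured and 29.4 to 120 RPM in BDL portions (log2 0.76, SE 0.48, adjusted p = 0.745, edgeR). Meg3 stood at 66.4 to 195 and 86.5 to 396 RPM (log2 0.53, SE 0.37, adjusted p = 0.795, edgeR). Nnat stood at 0 to 3.63 RPM in uninjured portions and at 1.66, 4.54, 11.5, 19.1 and 217 RPM after BDL, and the last portion had 9 wells, with 81.9% of its Nnat reads in 1 well. Its log2 fold change was 4.58 (SE 1.42, adjusted p = 0.233 with edgeR and 0.008002 with DESeq2), and 2.17 without that portion. H19 ranged from 0 to 20.9 and from 0 to 61.6 RPM in the same groups.

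After CCl4 for 6 weeks 0 of 10 genes passed in FB-like wells (edgeR, 0 at an unadjusted p under 0.05, 0 with DESeq2), as did 0% of all genes in either direction. In VSMC-like wells 8 genes were tested, H19 and Dlk1 having too few reads. After BDL 0 of 8 passed (edgeR, 1 at an unadjusted p under 0.05, 0 with DESeq2), against 0.199% of 13097 genes higher and 0.084% lower, and after CCl4 0 of 8 (0 at an unadjusted p under 0.05, 0 with DESeq2), against 0%. The VSMC-like gene with the unadjusted p was Plagl1, at 6.38 to 50.2 RPM in 6 uninjured and 2.93 to 12.8 RPM in 5 BDL portions (log2 -1.39, SE 0.61, adjusted p = 0.525, edgeR). Cdkn1c stood at 7.48 to 115 and 71.3 to 179 RPM (log2 0.82, SE 0.44, adjusted p = 0.695, edgeR).

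**Figure D5:**
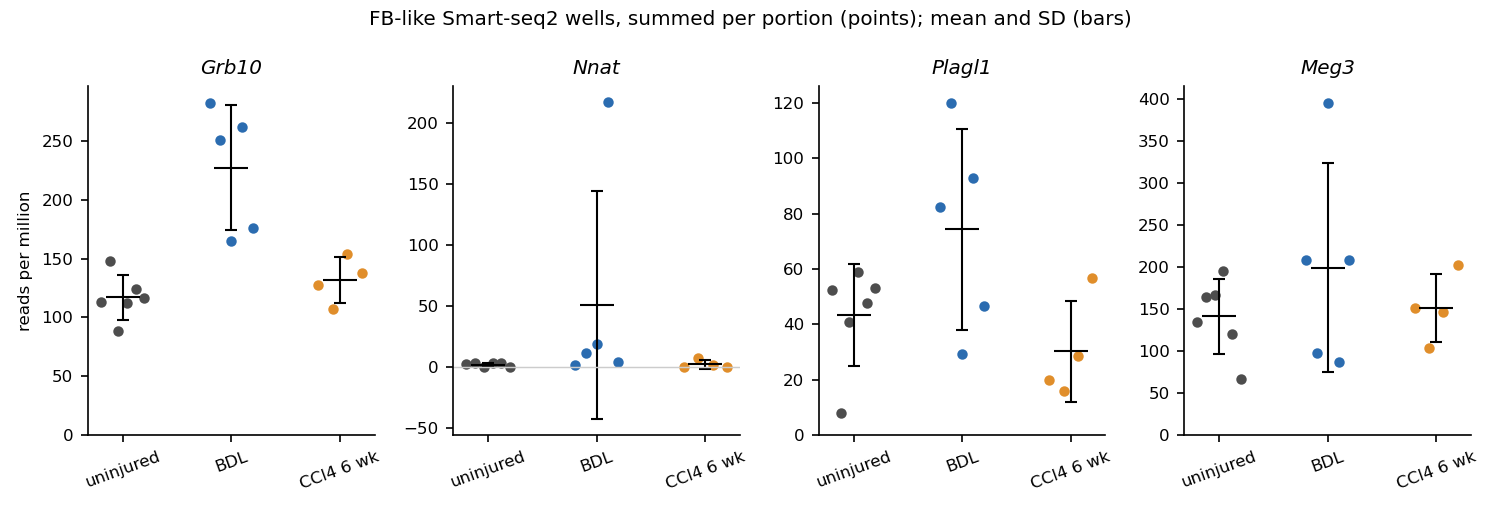
Level (RPM) of 4 imprinted genes in FB-like Smart-seq2 wells, 1 point per portion (wells of 1 mouse on 1 plate) in 6 uninjured, 5 BDL and 4 CCl4 portions, with the mean and SD as bars. Grb10 runs from 165 to 283 RPM in BDL and from 88.6 to 148 RPM in uninjured portions. The highest Nnat point, 217 RPM, comes from 9 wells.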

How the data were processed

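Single-cell RNA of sorted mouse liver mesenchyme was measured in 5 10X Chromium libraries and 6 Smart-seq2 plates. The authors deposited UMI counts per gene and barcode (10X) and read counts per gene and well (Smart-seq2), both raw and not normalized. The submitters' processing notes name Cell Ranger 2.1.0, STAR and the build mm10. The filter kept barcodes with at least 300 genes and at most 30% mitochondrial UMIs, 30999 of 31018. Called doublets (4.36% to 5.84% per library) were kept and left out in an alternative.

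Cells were clustered (2000 variable genes, 10 components, Leiden resolution 0.8) and named from marker lists. The 10 genes and all lists were chosen with earlier results of these data known. UMIs were summed per library and class and given as CPM with exact Poisson intervals at 95%, folds with exact conditional intervals and shares with exact binomial intervals. A level of 0 was set to 3 UMIs. With 1 library per condition no test was made, and a fold past 2 among genes of at least 10 CPM in either group is a size. Of 2292 Smart-seq2 wells 2085 were kept and summed per class over portions with at least 5 wells, 3272250 to 45609574 reads per portion. Portions were tested with edgeR 4.0.16 (quasi-likelihood, TMM, filterByExpr, adjusted p under 0.05), with DESeq2 1.42.0 as an alternative, in R 4.3.3. The labels do not say that portions of different plates came from different mice, so p-values may measure technical spread in part. Scripts were tested on simulated data. Named genes were the 10, the 3 leading partners of each in cells, the 3 other imprinted genes with the largest fold each way among those of at least 20 CPM, and reference and IGF genes.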

Additional observations from a re-analysis of the deposited data

Results flagged for a closer look

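Of 60 groups of Smart-seq2 portions, 18 values of a portion lay far from the others of its group. The cutoff gives about 1 in 20 only for normally distributed values. Many of these genes were read in few wells, with portions at 0, so no excess is read from the count. In FB-like wells after BDL, Mest stood at 410 RPM in a portion of plate 1 (0 to 31.9 in the others), Nnat at 217 RPM in the portion of 9 wells on plate 2 (1.66 to 19.1), Igf2 at 40.1 RPM on plate 4 with 62.2% of its reads in 1 well, and Dlk1 at 11.1 RPM on plate 2 with 97.4% in 1 well. In uninjured FB-like wells, plate 2 stood low for Plagl1, at 7.99 RPM (40.8 to 58.8 in the others), and high for H19, at 20.9 RPM, all in 1 well. Dlk1 was 4.83 RPM on plate 4 and Peg3 277 RPM on plate 6 (37.9 to 94.995 in the others). In FB-like wells after CCl4, a portion of plate 5 held 112 RPM of Mest, 93.9% of it in 1 well, and 1.40 RPM of H19.

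In VSMC-like wells H19 stood at 7.34 RPM on plate 4 after BDL, 0.923 RPM on plate 4 without injury and 2.30 RPM on plate 5 after CCl4, with 60.2% to 100% of these reads in 1 well. Uninjured VSMC-like wells also held single high portions for Mest (6.50 RPM, plate 5), Dlk1 (0.136 RPM, plate 6), Peg3 (48.6 RPM, plate 4) and Grb10 (204 RPM, plate 6, 63.0 to 106 in the others), and Dlk1 was 0.686 RPM on plate 3 after CCl4. Mest, H19 and Dlk1 are the genes most often listed here.

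In the 10X libraries 7 pairs of comparisons pointed opposite ways, none of them tested since each has 1 library. Meg3, Peg3 and Grb10 were higher at 72 h (4.79-fold, 1.53-fold and 1.477-fold) and lower at 6 weeks (0.699, 0.767 and 0.913-fold) in HSC-like cells, against the same uninjured library, and Grb10 at 6 weeks turned to 1.03-fold with median-of-ratios size factors. At 6 weeks Plagl1 was 3.16-fold in HSC-like and 0.7997-fold in FB-like cells, H19 at least 6.52-fold and 0.438-fold, and Peg3 0.767-fold and 1.42-fold. Dlk1 was at least 11.3-fold in HSC-like and 0.255-fold in VSMC-like cells.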

How the results depend on the processing

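Of 1150 alternative values 1091 were labelled the same. For 10X folds and for counts this meant within 1.5 times, and for Smart-seq2 genes the same side of the adjusted p threshold. A change of direction was counted only for a fold past 2 or a called gene, so smaller folds could turn within the 1091. All 10X counts of genes past 2-fold in HSC-like and VSMC-like cells kept within 1.5 times. The count of lower genes in FB-like cells at 6 weeks, 1, became 2 when scaled without the 50 most abundant genes and 0 as a mean of shares over cells. The FB-like Smart-seq2 count, 1 of 20 results in 2 contrasts, was 2 with DESeq2, and 0 with no filter on low counts, with plate in the fit, with the well filter on log10 values, with portions of at least 10 wells and with all kept wells except HSC-like ones. With each portion left out in turn it was 0 to 0, lowest to highest. For Grb10 alone 2 of 22 alternatives kept an adjusted p under 0.05, over a range of 0.000684 to 0.638 with log2 values of 0.40 to 1.04. The 6 genes at least 2-fold higher in collagen-high cells at 72 h became 2 with values that were not logged. There the fold of H19 turned from 9.07 to 0.928 and that of Meg3 from 5.90 to 2.49. That of Plagl1 went from 3.23 to 1.60, that of Nnat from 2.72 to 1.47 and that of Cdkn1c from 2.44 to 1.36. The share of all genes at least 2-fold higher in collagen-high cells was not counted, so nothing is read from the 6 or the 2. Pairs with r of at least 0.1 numbered 9 at 5000 UMIs and 6 at 2000. The cause of these shifts was not tested. The fit with plate as a term is the blocked comparison within plates. Counts in 10X data rest on 1 pool of 3 mice each, and Igf2 and Dlk1 in HSC-like cells are limited by 39 to 104 and 0 to 170 UMIs.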

Other observations

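Smart-seq2 wells outside the 3 classes held some of these genes. A cluster led by Saa3, Hp, Lcn2 and Chl1 took no class name and held 134 wells of CCl4 mice, in which Grb10 stood at 199 RPM with reads in 121 wells and Meg3 at 96.7 RPM in 96 wells. H19 was 23.9 RPM there, from 3 wells. Mesothelial wells, of the cells that cover the liver surface, varied in Nnat. It stood at 394 RPM in 4 wells of BDL mice, 3 of them with a read. It was 70.0 RPM in 4 wells of uninjured mice and 0.145 RPM in 19 wells of CCl4 mice, 1 of them with a read. In the 6446 thinned HSC-like cells at 72 h, 2139 cells held 0 of Plagl1, Meg3, Nnat and H19, 2368 held 1, 1500 held 2, 410 held 3 and 29 held all 4.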
